A study of Mus musculus with 12 samples.

Results

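Counts of 10 mouse germline genes were followed across the 12 RNA-seq libraries of 4 embryonic stem cell lines. The genes were Rhox5, Dazl, Ddx4, Mael, Asz1, Tex101, Tex19.1, Dpep3, Tuba3a and Tuba3b. They were taken by symbol from the deposited table of 31641 gene symbols, as non-meiotic germline genes whose promoters are sensitive to DNA methylation, and all 10 were found. Of the lines, Mut-1 and Mut-2 carry the genotype labelled Tin2 S341X, and WT-1 and WT-2 are labelled wild type. TIN2 is a subunit of shelterin, the protein complex that covers telomeres, and X is the usual sign for a stop codon. Zygosity, passage number, and kinship of the lines were not stated in the sources used here. All 4 lines came from C57BL/6 blastocysts and were cultured with serum and LIF on mouse embryonic fibroblasts, and total RNA was taken from cells grown on that feeder layer. Each line is 1 culture lineage with 3 libraries, named technical replicates in the design text, so 2 lines stand for each genotype. The series title asks what loss of TIN2 does to telomere-related phenotypes and to differentiation.

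Genes of this kind serve the formation of germ cells and are kept largely inactive elsewhere. In mice their promoters hold many CpG sites, gain DNA methylation around implantation, and are also bound by the E2F6 and MGA proteins of a Polycomb-type repressor complex named PRC1.6. Embryonic stem cells in serum carry much DNA methylation, and several of these genes become more active in them when the methyltransferases are removed. No methylation was measured here, so the RNA levels alone are described.

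The promoters show how the 10 genes differ at the sequence level. Windows from 250 bases before to 50 bases after each gene's start were read from RefSeq (GRCm38.p6). Those of Ddx4 and Dazl are printed because they hold the most CpGs, and those of Dpep3 and Rhox5 because these genes had the largest expression differences between genotypes. Capitals mark CpG dinucleotides. The Ddx4 window lies at chr13:112652261-112652560, Dazl at chr17:50293571-50293870 and Dpep3 at chr8:105979370-105979669, all on the minus strand, and Rhox5 at chrX:37754358-37754657 on the plus strand.
Ddx4: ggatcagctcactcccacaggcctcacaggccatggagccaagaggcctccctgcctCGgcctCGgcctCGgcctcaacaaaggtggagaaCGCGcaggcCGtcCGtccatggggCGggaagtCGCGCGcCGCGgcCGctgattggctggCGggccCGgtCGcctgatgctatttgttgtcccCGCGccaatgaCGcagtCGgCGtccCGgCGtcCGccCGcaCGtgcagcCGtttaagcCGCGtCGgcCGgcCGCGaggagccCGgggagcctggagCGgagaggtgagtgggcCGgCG
Dazl: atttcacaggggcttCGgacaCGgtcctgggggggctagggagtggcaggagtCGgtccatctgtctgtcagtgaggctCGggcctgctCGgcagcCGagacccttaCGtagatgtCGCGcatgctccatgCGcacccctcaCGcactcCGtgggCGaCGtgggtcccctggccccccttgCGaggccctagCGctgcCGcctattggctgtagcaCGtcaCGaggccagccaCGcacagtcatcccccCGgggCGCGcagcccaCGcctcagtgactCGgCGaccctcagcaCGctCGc
Dpep3: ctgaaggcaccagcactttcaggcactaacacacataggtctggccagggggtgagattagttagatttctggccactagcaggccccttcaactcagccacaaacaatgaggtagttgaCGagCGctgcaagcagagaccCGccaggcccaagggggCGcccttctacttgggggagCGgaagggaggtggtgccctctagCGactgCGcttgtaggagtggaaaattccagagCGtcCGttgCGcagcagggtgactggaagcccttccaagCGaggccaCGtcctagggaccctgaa
Rhox5: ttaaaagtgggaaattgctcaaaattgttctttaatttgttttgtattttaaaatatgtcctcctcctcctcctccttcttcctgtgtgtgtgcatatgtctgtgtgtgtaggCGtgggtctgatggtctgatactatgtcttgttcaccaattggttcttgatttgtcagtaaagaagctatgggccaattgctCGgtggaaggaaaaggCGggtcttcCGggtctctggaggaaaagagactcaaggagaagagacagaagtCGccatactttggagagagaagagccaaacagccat

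The Ddx4 window held 38 CpGs, more than 95.1% of the 32851 promoters in the same table, where the median was 7. Dazl had 28 CpGs, Mael 24, Tex101 19, Asz1 17, Tex19.1 and Tuba3b 16 each, and Dpep3 and Tuba3a 12 each. Rhox5 was the exception, with 5 CpGs, which was above 38.0% of promoters. Its RefSeq start also lies 50234 bases from the nearest GENCODE M21 transcript start, so its printed window is not the one upstream of the gene model used here for its position and length. For the other 9 genes the distance between both starts was at most 206 bases, the value of Tuba3b.

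Motifs were looked for as fixed letters on both strands. The E-box CACGTG, the core that MGA and its partner MAX recognise, was present in Mael at -223 and in Ddx4 at -29 from the start, and in 7.15% of all promoters. The longer form TCACGTGA was in no window of the 10 genes and in 0.974% of all promoters. The E2F-type motif TTCCCGCC was present in Tuba3a at -120, in Tuba3b at -107 and, as GGCGGGAA, in Ddx4 at -137, against 2.19% of all promoters. In the tubulin pair it lies within the longest run of letters that both windows share, 33 bases long, shown with the motif in capitals.
Tuba3a and Tuba3b: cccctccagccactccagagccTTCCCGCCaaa
These are matches of letters, not measured binding.

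**Figure D1:**
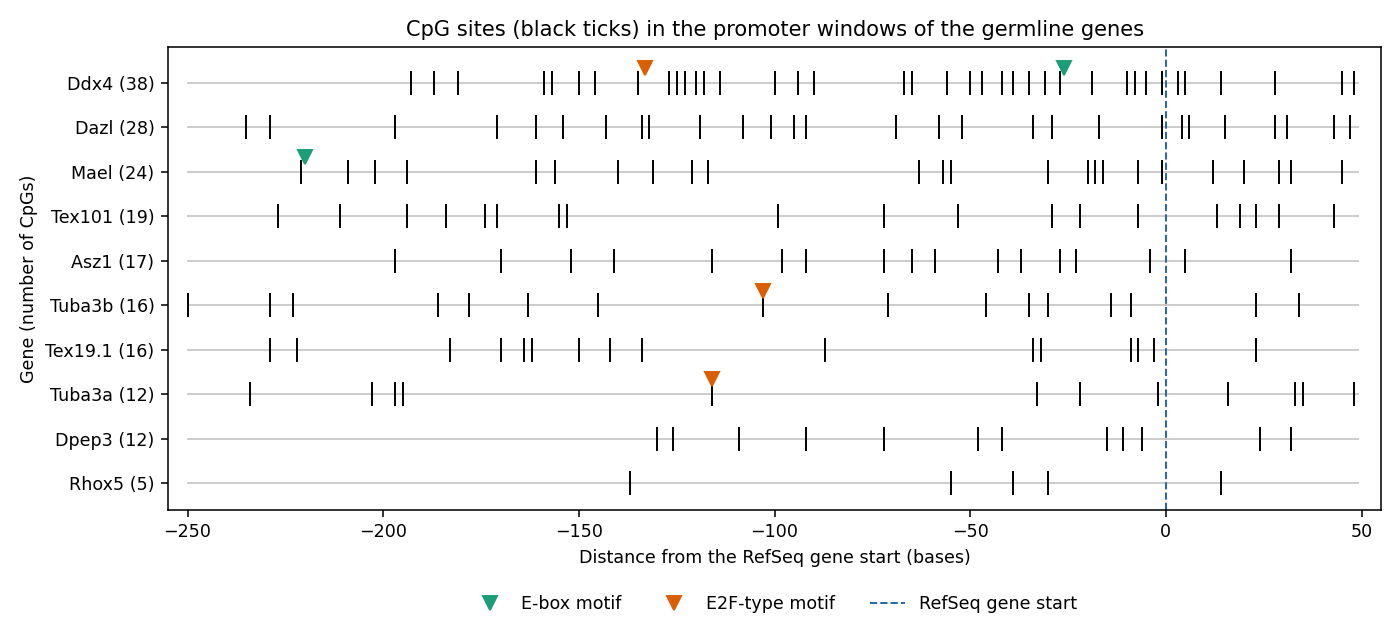
Positions of CpG sites (ticks), E-box and E2F-type motifs (triangles) in the promoter windows of the 10 genes, in bases from the RefSeq gene start (dashed line). Ddx4, with 38 CpGs, is the densest window and Rhox5, with 5, the sparsest. The RefSeq start of Rhox5 lies 50234 bases from the nearest GENCODE M21 transcript start.

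Library totals ran between 14766477 and 17891894 counts, with 22713 to 24070 genes detected. Tinf2, the gene of TIN2, had 19.7 to 30.1 CPM, counts scaled to a common library size, in the Mut libraries and 57.7 to 69.2 CPM in the WT libraries, so the labels and the targeted transcript went together. The 12 stem cell markers summed to between 6000 and 7641 CPM in Mut and between 6725 and 7757 CPM in WT. Summed over 25 fibroblast markers, none of them at 0, the level was 5584 to 12390 CPM in Mut and 4985 to 7104 CPM in WT. Mut-1 replicate 1 and Mut-2 replicates 1 and 2 were above every other library. They are called the feeder-rich libraries below. WT-1 replicates 1 and 2 resembled each other more than any other pair of libraries of 1 line, with a chi-square per degree of freedom of 1.62 against 10.9 to 38.4. In means and SDs within WT-1 they count as 1 value.

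All 10 genes had reads in all 12 libraries, so none was silent in these cultures at the level of a read. CPM values are scaled with TMM, edgeR's correction for library composition. Levels of different genes are compared per kilobase of exon. Tex19.1, which acts against retrotransposons in germ cells and is known to be active in pluripotent cells, was highest, with 58.6 CPM per kb in Mut and 57.1 in WT. That was above 95.2% of the 17175 genes tested with a known exon length in Mut, and above 95% in WT. Tuba3a, Dazl, Ddx4 and Mael lay in the middle of the range, between 5.53 and 9.51 CPM per kb in Mut and between 5.23 and 14.2 in WT. Dpep3, Tex101 and Tuba3b stayed at or under 1.11 CPM per kb in Mut and 0.504 in WT. Asz1 was lowest, at 0.156 CPM per kb in Mut and 0.0898 in WT, above 7.85% of genes in Mut and 5% in WT. Rhox5 had the widest gap in place, at 1.82 CPM per kb in Mut and 7.997 in WT, or above 38.5% of genes in Mut and 67.3% in WT.

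**Figure D2:**
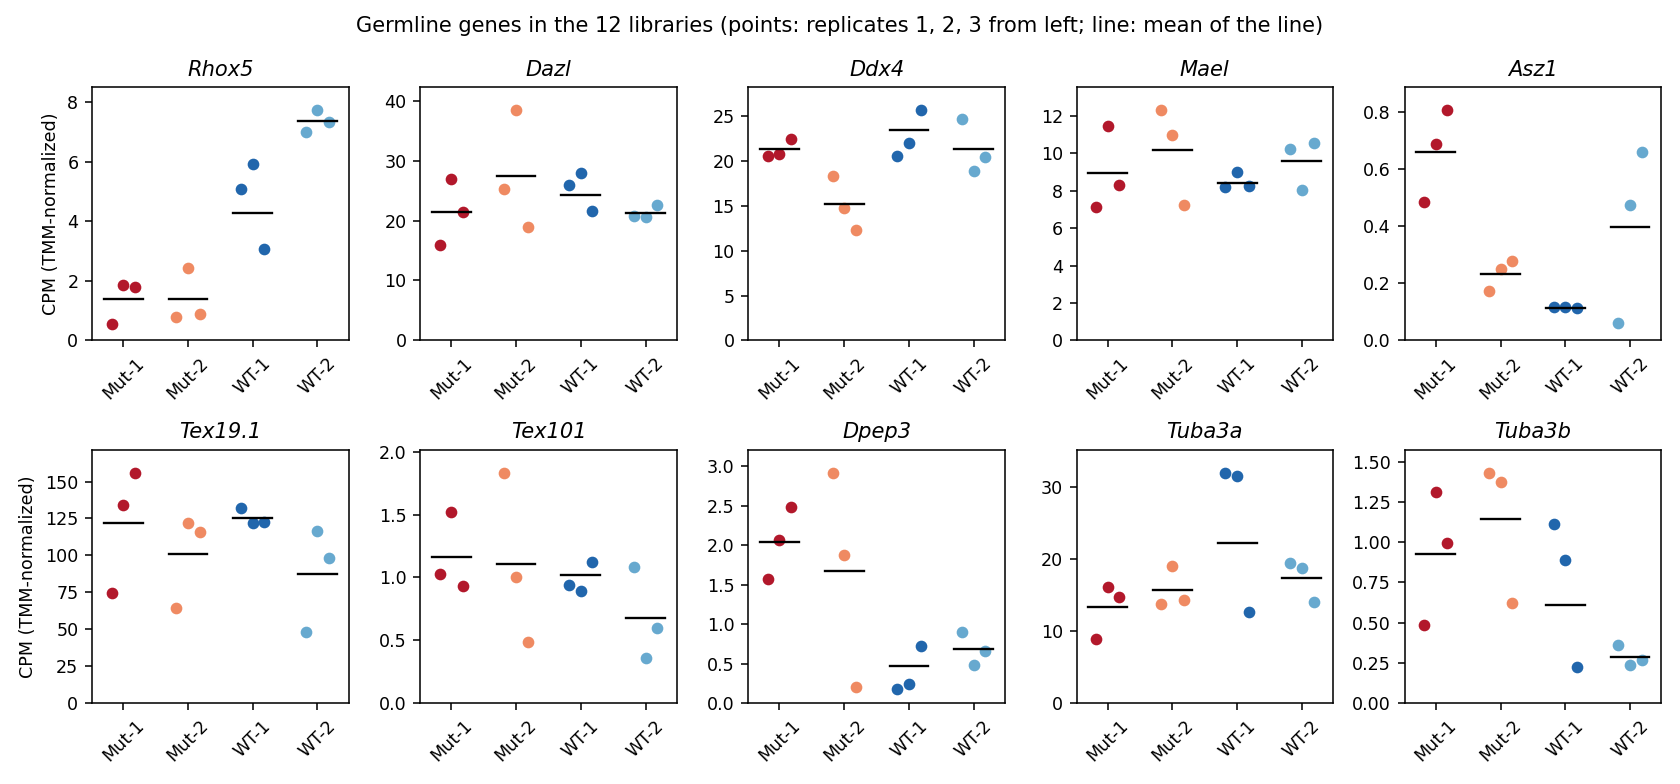
TMM-normalized CPM of the 10 genes in each library, with replicates 1, 2 and 3 side by side in each line and a bar at the line's mean (WT-1 replicates 1 and 2 counted as 1 value). Each axis starts at 0 and has its own scale. The Mut points of Rhox5 end at 2.44 CPM, below the lowest WT point at 3.08 CPM, and in the other 9 panels the genotypes overlap.

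The first question was whether any of the genes differed between the Tin2 S341X lines and the wild-type lines. Line totals, the sums of the 3 libraries of a line, were compared with edgeR's quasi-likelihood test, with p-values adjusted over all 18749 genes tested and a threshold of 0.05. All 10 genes passed the filter on low counts. Of the 10 genes 0 passed the test, and 0% of all genes were called in either direction. At an unadjusted p under 0.05, Dpep3 was higher in Mut, 1 of 10 against 9.17% of all genes, and Rhox5 and Tuba3a were lower, 2 of 10 against 3.88%. In this fit 1719 genes were higher and 728 lower at that level. Of the 10 genes 2, Dpep3 and Tuba3b, were at least 2-fold higher, against 2.41% of all genes, and 1, Rhox5, was at least 2-fold lower, against 0.613%. Tuba3b lay just past that fold, at 1.004 on the log2 scale, and was short of it with RLE (0.9949), with DESeq2 (0.9952) and without the filter (0.9819). With a line left out it ran between 0.49 and 1.85. The median log2 fold change of the 10 genes was 0.07, with 7 positive and 3 negative, beside a median of -0.0016 over all genes tested.

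Rhox5, an X-linked homeobox gene known in mice from testis Sertoli cells and extraembryonic tissue, had the largest difference. The gene lies at chrX:37804842-37808876 (plus strand, GRCm38, GENCODE M21). Its levels were 0.545, 1.86 and 1.80 CPM in the libraries of Mut-1, and 0.801, 2.44 and 0.900 CPM in those of Mut-2. They were 5.09, 5.92 and 3.08 CPM in the libraries of WT-1, and 7.001, 7.73 and 7.34 CPM in those of WT-2. Each Mut library lay below each WT library. It was the only one of the 10 genes to separate in this way, while 0.645% of all genes tested were lower without overlap and 1.33% were higher. The raw counts behind these values were 9 to 39 per library in Mut and 55 to 130 in WT.

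On line totals Rhox5 averaged 1.37 ± 0.0111 CPM in the Mut lines and 6.03 ± 1.88 CPM in the WT lines (SD, n = 2 lines each). The log2 fold change was -2.13 (SE 0.28), a level 4.38 times higher in WT. Its unadjusted p was 7.27e-05, rank 12 of the 18749 genes, and its adjusted p in edgeR was 0.102. Other tools called it, though they did not test all 10 genes: DESeq2 gave no adjusted p for Asz1 and Tuba3b, and limma-voom did not test Asz1. DESeq2 on the same totals gave an adjusted p of 3.92e-08, with 0.464% of genes called lower. Limma-voom on the 12 libraries with line as a random block gave a log2 fold change of -2.23 and an adjusted p of 0.0073, with 0.267% of genes called lower. That fit estimated a correlation within lines of -0.002, so the 12 libraries entered it much like independent samples, and the spread between lines is not what its p-values measure. Called by DESeq2 were 361 genes in all, and by limma-voom 226. In edgeR itself Rhox5 was called without the filter on low counts (adjusted p = 0.0102). It was also called with a line left out, at 0.0269 without Mut-1, 0.0288 without Mut-2 and 0.0163 without WT-1, but not without WT-2 (-1.78, adjusted p = 0.614). Each of these sets 1 line against 2. Of the single libraries only Mut-1 replicate 3, when left out, changed the call (adjusted p = 0.0384).

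Within genotypes the Mut lines had nearly the same Rhox5 level, at 1.37 CPM in Mut-1 and 1.38 CPM in Mut-2. The WT lines were further apart, with 7.36 CPM in WT-2 against 4.70 CPM in WT-1, and their libraries did not overlap. A fit of the 12 libraries with 4 line groups gave -0.01 for Mut-2 over Mut-1 (adjusted p = 0.997) and 0.65 for WT-2 over WT-1 (adjusted p = 0.757, edgeR). In such pairs of lines a gene is called where its adjusted p is under 0.05 and its level differs at least 2-fold, and p-values measure only the spread between libraries of a line. These cannot stand for independent cultures.

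Rhox5 passed in both pairs that involve WT-2, as the only one of the 10 genes to pass in any of the 6 pairs. It fell in Mut-2 relative to WT-2, with a log2 fold change of -2.41 (SE 0.47, adjusted p = 0.0348, edgeR), where 0.0605% of genes were called lower. It also fell in Mut-1 relative to WT-2, at -2.39 (adjusted p = 0.0342, edgeR), where 0.0423% were called lower. Both comparisons share the WT-2 libraries. Relative to WT-1 it did not pass, at -1.75 in Mut-1 (adjusted p = 0.207) and -1.76 in Mut-2 (adjusted p = 0.158, edgeR). In the Mut-1 pair 0.0302% of genes were called lower, and in the Mut-2 pair 0.0484%. Called higher were 0.175% of genes in Mut-1 over WT-1, 0.399% in Mut-2 over WT-2, 0.133% in Mut-2 over WT-1 and 0.327% in Mut-1 over WT-2, with 0 of the 10 genes among them. In WT-2 over WT-1 0.0181% of genes were called higher and 0% lower, and in Mut-2 over Mut-1 0.0423% higher and 0.0786% lower, also with 0 of the 10 genes. The calls were not stable. With WT-1 replicates 1 and 2 taken as 1 library the adjusted p was 0.0604 for Mut-2 over WT-2 and 0.0562 for Mut-1 over WT-2. Leaving out 1 library at a time ended the call in 10 of 12 fits for Mut-2 over WT-2 and in 8 of 12 for Mut-1 over WT-2, with log2 fold changes between -3.13 and -1.997 throughout. Adjusted p-values where the call ended ran between 0.0523 and 0.133. The call of Mut-2 over WT-2 stood only without Mut-1 replicate 1 or WT-1 replicate 3, and that of Mut-1 over WT-2 only without WT-1 replicate 3 or any 1 library of Mut-2. In Mut-1 over WT-1, leaving out WT-1 replicate 3 made Rhox5 pass (-1.98, adjusted p = 0.0479, edgeR). In each fit without WT-1 replicate 3, WT-1 is left with its near-identical replicates 1 and 2, which add hardly any spread, so those p-values carry little weight.

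Other measures were taken beside Rhox5 because it is X-linked and because fibroblast markers were higher in Mut libraries. The median shift of 353 X-linked genes ran between -0.039 and 0.054 (log2) in the Mut libraries and between -0.038 and 0.055 in the WT libraries. Without the feeder-rich libraries the log2 fold change of Rhox5 on line totals was -2.06 (adjusted p = 0.650, edgeR). The remaining Mut libraries lay below all WT libraries, which was nearly given beforehand, since every Mut library already did so. The markers of testis somatic cells summed to 21.01 to 34.7 CPM in Mut and 22.4 to 33.3 CPM in WT. The part of the X chromosome or of other cells in the Rhox5 difference was not tested. In a bulk culture, fewer cells with the transcript and less of it per cell cannot be told apart.

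The Rhox gene cluster around Rhox5 gave little to compare. The count table holds 12 of its listed members, of which 4 passed the filter on low counts, and 0 were called. Rhox13 had a log2 fold change of 0.37, Rhox9 of 0.11, Rhox1 of -0.04 and Rhox6 of -0.29 on line totals, with adjusted p-values of 0.755 to 0.972 (edgeR). None of these was near the -2.13 of Rhox5. By line, Rhox6 had 1.59 CPM in Mut-2 and 2.90 CPM in Mut-1, and 1.72 CPM in WT-2 and 3.71 CPM in WT-1.

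Dpep3 and Tex101 encode proteins on the surface of male germ cells, a membrane-bound dipeptidase and a GPI-anchored glycoprotein that is known as its partner in testis. Dpep3 (chr8:105973513-105979429, minus strand) had 1.57, 2.07 and 2.48 CPM in the libraries of Mut-1, and 2.92, 1.88 and 0.208 CPM in those of Mut-2. It had 0.176, 0.237 and 0.728 CPM in the libraries of WT-1, and 0.905, 0.476 and 0.661 CPM in those of WT-2. The 5 other Mut libraries lay above all WT libraries, and Mut-2 replicate 3, with 3 reads, lay among the lowest. Line totals averaged 1.89 ± 0.183 CPM in Mut and 0.534 ± 0.206 CPM in WT (SD, n = 2 lines each), which is a log2 fold change of 1.82 (SE 0.34). The unadjusted p was 0.000754, rank 81, and the adjusted p was 0.168 in edgeR. DESeq2 called Dpep3 higher (adjusted p = 0.0139, with 1.93% of genes called higher), as did edgeR without the filter on low counts (adjusted p = 0.0441), and limma-voom did not (1.64, adjusted p = 0.171, with 1.17% called higher).

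By line, Dpep3 was at 2.02 CPM in Mut-1 and 1.76 CPM in Mut-2, against 0.389 CPM in WT-1 and 0.680 CPM in WT-2. Its log2 fold change was 2.39 for Mut-1 over WT-1 and 2.12 for Mut-2 over WT-1, with adjusted p-values of 0.255 and 0.258. Relative to WT-2 it was 1.57 in Mut-1 and 1.30 in Mut-2, with adjusted p-values of 0.343 and 0.388 (edgeR). The high values of Mut-2 were in its feeder-rich libraries. Without these the difference between Mut-2 and WT-1 turned round to -0.87, on the 3 reads of Mut-2 replicate 3, and the line totals gave 1.37. In Mut-1 the order was the other way, since the library with the least fibroblast RNA, replicate 3, had the most Dpep3. The part of feeder RNA in the difference was not tested. A long non-coding gene on the opposite strand, Gm45752, spans Dpep3 and had 128 reads in the 12 libraries together, and without a stated strand setting reads of both cannot be told apart.

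Tex101 (chr7:24668007-24676675, minus strand) showed no such separation. It had 0.485 to 1.83 CPM in Mut and 0.357 to 1.12 CPM in WT, with a median of 1.01 CPM in Mut and 0.912 CPM in WT. The line totals gave 1.14 ± 0.0117 CPM in Mut and 0.836 ± 0.220 CPM in WT (SD, n = 2 lines each), which is a log2 fold change of 0.45 (SE 0.31, adjusted p = 0.584, edgeR). Its 2 highest levels were in Mut-2 replicate 1 and Mut-1 replicate 2 and its lowest in WT-2 replicate 2.

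Tuba3a and Tuba3b are α-tubulin genes that are active mainly in testis, and both lie on chromosome 6. Tuba3a is at chr6:125278274-125286042 (minus strand) and Tuba3b at chr6:145615757-145621479 (plus strand). Their longest transcripts were 95.2% identical over 1508 aligned positions, so reads may have been shared or lost between them in the authors' counting, and both levels are uncertain. Their promoter windows were 60.8% identical. The pair had opposite signs, with log2 fold changes of -0.58 for Tuba3a and 1.004 for Tuba3b on line totals. A non-coding gene on the opposite strand, 4930417O13Rik, also overlaps Tuba3a.

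Tuba3a had 8.89, 16.2 and 14.8 CPM in the libraries of Mut-1, and 13.7, 19.02 and 14.3 CPM in those of Mut-2. It had 32.0, 31.5 and 12.6 CPM in the libraries of WT-1, and 19.4, 18.8 and 14.0 CPM in those of WT-2. Only the near-identical WT-1 replicates 1 and 2 lay clearly above the Mut libraries, WT-2 replicate 1 was just above the highest of them, and WT-1 replicate 3 lay inside their range. Line totals averaged 14.4 ± 1.90 CPM in Mut and 21.4 ± 5.52 CPM in WT (SD, n = 2 lines each), with an SE of 0.20 on the log2 scale, an unadjusted p of 0.0223 and an adjusted p of 0.307 (edgeR). With the 2 WT-1 libraries taken as 1, the log2 fold change was -0.46. Without WT-1 replicate 3 the pair Mut-1 over WT-1 was called (-1.26, adjusted p = 0.0244, edgeR), against -0.94 and an adjusted p of 0.333 with it. The WT-1 arm then held only the near-identical replicates 1 and 2, so that p rests on hardly any spread in WT-1. Relative to WT-2, Tuba3a was at -0.39 in Mut-1 and -0.15 in Mut-2.

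Tuba3b was the scarcer copy, with 0.484, 1.31 and 0.993 CPM in the libraries of Mut-1, and 1.43, 1.38 and 0.623 CPM in those of Mut-2. It had 1.11, 0.888 and 0.224 CPM in the libraries of WT-1, and 0.362, 0.238 and 0.264 CPM in those of WT-2. Each Mut library lay above each WT-2 library, and WT-1 overlapped with both. The line totals gave 1.04 ± 0.190 CPM in Mut and 0.513 ± 0.318 CPM in WT (SD, n = 2 lines each), with an SE of 0.45 and an adjusted p of 0.396 (edgeR). Relative to WT-2 the log2 fold change was 1.65 in Mut-1 and 1.97 in Mut-2, with adjusted p-values of 0.274 and 0.139. Between the WT lines it was -1.33 for WT-2 over WT-1 (adjusted p = 0.657, edgeR). In WT-1 both tubulin genes were lower in replicate 3 than in the other replicates.

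Dazl, Ddx4, Mael and Asz1 belong to the RNA-handling machinery of germ cells. Dazl (chr17:50279395-50293636, minus strand) is an RNA-binding protein that controls translation. Ddx4 (chr13:112598333-112652475, minus strand) is the VASA helicase of nuage, the RNA granule of germ cells. Mael (chr1:166201201-166238747, minus strand) and Asz1 (chr6:18050964-18109061, minus strand) act in the piRNA pathway, which directs small RNAs against transposons.

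Ddx4 was lowest in Mut-2 and similar in the other 3 lines, by differences that did not pass the test. It had 20.6, 20.8 and 22.5 CPM in the libraries of Mut-1, and 18.4, 14.8 and 12.3 CPM in those of Mut-2, against 20.5, 22.0 and 25.7 CPM in the libraries of WT-1, and 24.7, 18.9 and 20.5 CPM in those of WT-2. All Mut-2 libraries lay below all others, and the other lines overlapped. The log2 fold change of Mut-2 was -0.49 relative to Mut-1, -0.58 relative to WT-1 and -0.49 relative to WT-2, with adjusted p-values of 0.570, 0.200 and 0.186 (edgeR). The pairs of Mut-1 with WT-1 and with WT-2 gave -0.09 and -0.0044. On line totals Ddx4 averaged 18.2 ± 4.04 CPM in Mut and 22.2 ± 1.11 CPM in WT (SD, n = 2 lines each), which is a log2 fold change of -0.28 (SE 0.18, adjusted p = 0.537, edgeR). Tdrd12, another nuage gene, singled out after its values were seen, was also lower in Mut-2 than in the other lines, with -0.99 relative to Mut-1, -0.89 relative to WT-1 and -0.95 relative to WT-2 and adjusted p-values between 0.0541 and 0.116 (edgeR).

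Dazl and Mael differed between genotypes by less than the standard error of the difference. Dazl had 16.0 to 38.4 CPM in Mut (median 23.3) and 20.7 to 27.9 CPM in WT (median 22.1), with a log2 fold change of 0.07 (SE 0.17, adjusted p = 0.905, edgeR). Mael had 7.14 to 12.3 CPM in Mut (median 9.67) and 8.02 to 10.6 CPM in WT (median 8.62), with a log2 fold change of 0.08 (SE 0.18, adjusted p = 0.886, edgeR). For both genes the Mut libraries spread more widely than the WT libraries on either side. By line the order of Dazl was Mut-2, WT-1, WT-2 and Mut-1, at 27.8, 25.3, 21.3 and 20.99 CPM, and no neighbours in it separated.

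Asz1 was close to the limit of detection. It had 8, 10 and 13 reads in Mut-1 and 3, 4 and 4 reads in Mut-2, against 2 reads in each WT-1 library and 1, 8 and 10 reads in WT-2. The lines therefore did not follow genotype, and the order was Mut-1, WT-2, Mut-2 and WT-1, with 0.651, 0.392, 0.230 and 0.117 CPM. Its log2 fold change on line totals was 0.80 (SE 0.67, adjusted p = 0.650, edgeR). The widest pair was Mut-1 over WT-1, at 2.43 (SE 0.65, adjusted p = 0.210, edgeR), on totals of 31 and 6 reads.

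Tex19.1 (chr11:121146143-121148319, plus strand) had its lowest value in replicate 1 of every line except WT-1. It had 74.8, 134 and 156 CPM in the libraries of Mut-1, and 64.7, 122 and 116 CPM in those of Mut-2, against 132, 122 and 123 CPM in the libraries of WT-1, and 48.2, 116 and 97.9 CPM in those of WT-2. The libraries of both genotypes overlapped over most of their range. Line totals averaged 109.7 ± 14.2 CPM in Mut and 106.9 ± 27.8 CPM in WT (SD, n = 2 lines each), which is a log2 fold change of 0.04 (SE 0.18, adjusted p = 0.954, edgeR). Its paralogue Tex19.2, whose transcript was 75.5% identical over the aligned stretch, had a log2 fold change of -0.01.

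**Figure D3:**
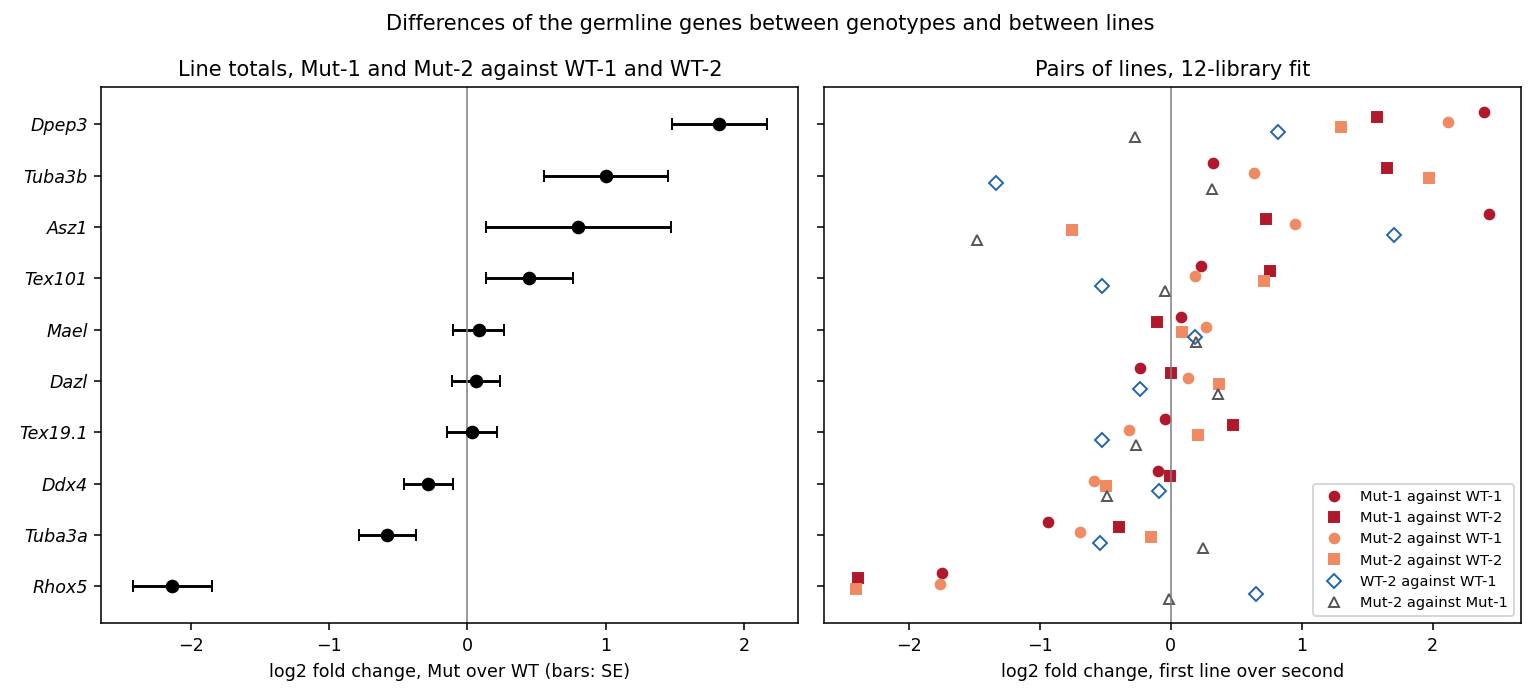
Log2 fold changes of the 10 genes on line totals, Mut over WT (left, bars are standard errors), and for each pair of lines in the 12-library fit (right, first line over second). Rhox5 lies at -2.13 on the left and, in the 4 pairs of a Mut with a WT line, between -2.41 and -1.75; Ddx4, Dazl, Mael and Tex19.1 lie between -0.58 and 0.48.

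The regulators of such genes were read from lists of the DNA methylation machinery, of PRC1.6 and other repressors, and of germ cell regulators. On line totals 0 genes of any list were called by edgeR, as for all genes. Of 19 genes of the DNA methylation machinery 13 were lower and 6 higher in Mut, with a median log2 fold change of -0.17. At an unadjusted p under 0.05, 5 were lower and 0 higher, against 3.88% and 9.17% of all genes tested. Smallest in p were the cofactor Dnmt3l at -0.36, the maintenance methyltransferase Dnmt1 at -0.31 and the de novo enzymes Dnmt3b at -0.39 and Dnmt3a at -0.37, with adjusted p-values between 0.263 and 0.307 (edgeR). The list also holds genes of demethylation, so its direction is not that of methylating enzymes alone. Among these Tet1, at -0.28, was also lower at an unadjusted p under 0.05 (adjusted p = 0.307, edgeR). Tdg was at -0.22, Tet3 at -0.06 and Tet2 at 0.05. Of 19 genes of PRC1.6 and other repressors 15 were lower and 4 higher, with a median of -0.09, and 2 were lower at an unadjusted p under 0.05. These were Tfdp1, a partner of E2F proteins, at -0.48 and Cbx3, a heterochromatin protein, at -0.29, with adjusted p-values of 0.182 and 0.289. E2f6 itself was at 0.03 and Mga at -0.09.

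Related germline genes had differences in both directions. Of 19 genes of the piRNA pathway and nuage 11 were higher and 8 lower, with a median of 0.08, and at an unadjusted p under 0.05, 3 were higher and 1 lower. They were Rnf17 at 0.38, Tdrd7 at 0.50 and Piwil1 at 0.54, and Pld6, a mitochondrial enzyme of piRNA formation, at -0.55. Of 26 other methylation-sensitive germline genes 16 were higher and 10 lower, with a median of 0.08. At an unadjusted p under 0.05, 9.17% of all genes tested were higher and 3.88% lower. Lower without overlap between libraries, at any p, were 0.645%. Of this list of 26 genes, 3 were higher and 5 lower at that p, and 3 of the lower ones had no overlap. Smallest in p were Hsf2bp at -0.85, Stag3 at -0.78 and Hormad1 at -0.70, which act in meiosis, and the X-linked gene Xlr3a at -1.30, with adjusted p-values of 0.102 to 0.220 (edgeR). Xlr3a was called lower in Mut-2 relative to WT-1 (-1.86, adjusted p = 0.0334, edgeR). Stag3 and Hsf2bp reached adjusted p-values of 0.0125 and 0.0216 in Mut-2 relative to WT-2, at -0.94 and -0.96. In Mut-1 relative to WT-2 these were 0.0135 and 0.0288, at -0.86 and -0.88 (edgeR). All were short of the fold change needed for a call. Relative to WT-1 the adjusted p-values of both genes were 0.0716 to 0.124 (edgeR). This list and that of the piRNA pathway share Mov10l1, Tdrkh, Tdrd1 and Fkbp6.

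Of 14 germ cell regulators 6 were higher and 8 lower, with a median of -0.01. At an unadjusted p under 0.05, 2 were higher and 4 lower, against 9.17% and 3.88% of all genes tested. Tfap2c, a transcription factor of primordial germ cells, was at -0.55 and the RNA-binding protein Lin28a at -0.31. Rbm46, a germ cell RNA-binding protein, was at 1.39 and the oocyte homeobox gene Nobox at 1.48, with adjusted p-values of the 4 genes between 0.181 and 0.268 (edgeR). Among 12 paralogues of the 10 genes 5 were higher and 7 lower, with a median of -0.01, and none reached an unadjusted p under 0.05. Dpep1, a paralogue of Dpep3, was at 0.59 (adjusted p = 0.458). Singled out in the same way, Ddx3y, a Y-linked helicase related to Ddx4, rose in Mut-2 relative to WT-2 in the fit of pairs of lines (1.42, adjusted p = 0.0390, edgeR). It had the opposite sign in Mut-1 relative to WT-1, at -1.12 (adjusted p = 0.168, edgeR), and was at -0.05 on line totals. Its level was 7.03 CPM in Mut-1, 12.5 CPM in Mut-2, 4.67 CPM in WT-2 and 15.3 CPM in WT-1, and the difference of WT-2 and WT-1 did not pass (adjusted p = 0.0738, edgeR).

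Markers of other cells that the cultures could hold were read beside these lists. All 25 fibroblast markers had positive log2 fold changes, with a median of 0.58. At an unadjusted p under 0.05, 24 were higher, against 9.17% of all genes tested. Of 12 primitive endoderm markers 11 were positive, with a median of 0.47, and they summed to 508 to 915 CPM in Mut and 519 to 653 CPM in WT. The feeder-rich libraries had sums of 833 to 915 CPM, and the other Mut libraries of 508 to 626 CPM. Trophectoderm markers summed to 23.9 to 40.7 CPM in Mut and 21.9 to 56.3 CPM in WT, with a median log2 fold change of -0.01 over the 7 tested, and 8 testis somatic markers had a median of 0.03. Within these lists the levels were uneven. Of the primitive endoderm markers, Lamb1 had 125 to 257 CPM in Mut and 152 to 189 CPM in WT. Col4a2 had 117 to 254 CPM in Mut and 111 to 149.5 CPM in WT, while Gata6, Sox17, Sox7 and Foxa2 stayed at or under 3.72 CPM. Of the trophectoderm markers, Plac1, Prl3d1 and Elf5 stayed at or under 0.276 CPM, while Eomes had 10.3 to 19.4 CPM in Mut and 8.79 to 16.9 CPM in WT, and Ascl2 had 2.57 to 10.6 CPM in Mut and 4.63 to 27.3 CPM in WT. Of the testis somatic markers, Cyp17a1 was at 0 or near it, while Star had 6.35 to 16.6 CPM in Mut and 5.61 to 16.2 CPM in WT. Stem cell markers had a median of -0.07. The part of any of these cells in the differences of Dpep3, Tuba3b or the regulators was not tested.

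**Figure D4:**
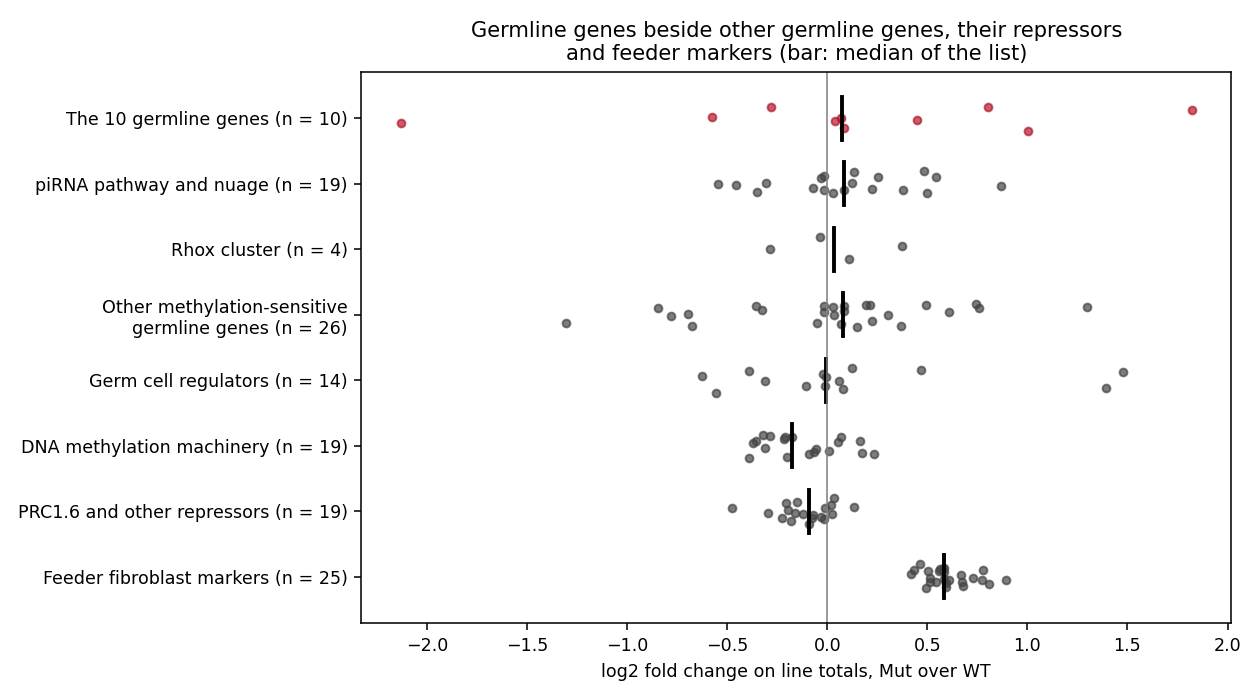
Log2 fold changes on line totals, Mut over WT, for the 10 germline genes (red) and for lists of related genes, repressors and fibroblast markers (grey), 1 point per gene, with a bar at each list's median. The 10 genes spread between -2.13 and 1.82 around a median of 0.07, while the fibroblast markers all lie above 0.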

How the data were processed

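The authors deposited raw counts, whole numbers for each gene in each library. GRCm38, HTSeq 0.6.0, HISAT2 2.1.0, Bowtie2 2.2.3 and bcl2fastq are named in the submitters' processing notes; for annotation and strand, the setting was not given in the sources used here. Positions and exon lengths come from GENCODE M21, and promoter sequences from RefSeq.

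Counts were summed per line (47284654 to 52074216 a line) and compared by quasi-likelihood in edgeR 4.0.16 (R 4.3.3; TMM, filterByExpr, Benjamini-Hochberg at 0.05). Pairs of lines came from 1 edgeR fit of the 12 libraries with 16533 genes. The alternatives were RLE size factors, no filter, DESeq2 1.42.0, limma 3.58.1 (voom), a replicate block, merged WT-1 libraries, and left-out lines and libraries.

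The 10 genes, the lists and the tests were chosen with earlier results of these data known. In each list up to 4 genes of smallest p are named. Tdrd12, Ddx3y, Tex19.2, E2f6, Mga, Tdg and the Tet genes were named for their role or after their values were seen. Replicates were not stated to be separate cultures, so p-values of pairs may measure technical spread. Same-number libraries were compared by the correlation (r) of their deviations from the line's mean. It was 0.139 to 0.493 between Mut-2 and Mut-1, and 0.288 to 0.404 between Mut-1 and WT-2. It was 0.114 to 0.695 between Mut-2 and WT-2, and 0.194 to 0.621 between WT-2 and WT-1. Between Mut-1 and WT-1 it was -0.13 to 0.217, and between Mut-2 and WT-1 -0.288 to -0.105. Libraries of different numbers were not compared in this way, so whether the numbers pair libraries was not tested.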

Additional observations from a re-analysis of the deposited data

How the results depend on the processing

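Directions of Rhox5, Dpep3, Tuba3a, Tuba3b, Tex101 and Ddx4 on line totals held under all 22 alternatives run. Rhox5 ranged between -2.41 and -1.78 and Dpep3 between 1.37 and 2.27. Without the low-count filter both were called on line totals (edgeR), as with DESeq2, giving 2 genes of the 10, and limma-voom called 1. Leaving out 1 line or 1 library gave 0 to 1 called. Over all genes the line totals gave 1 call of 18749 with RLE and 77 of 31641 without the filter. DESeq2 gave 361 of 15078 genes with an adjusted p, and limma-voom 226 of 15702. There were 2 calls with WT-1 replicates 1 and 2 merged (added after seeing the data), and 0 to 158 with a line or library left out.

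The sign of 4 genes, none of them called, changed with the setting. Without the feeder-rich libraries Dazl was at -0.10 and Mael at -0.067, and Dpep3 in Mut-2 over WT-1 at -0.87. With a line or library left out, Asz1 ran between -0.13 and 1.89, Dazl between -0.15 and 0.25, Mael between -0.045 and 0.19 and Tex19.1 between -0.21 and 0.34. The cause was not tested.

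In the 4 pairs of a Mut with a WT line, Rhox5 kept its direction in all fits. Under RLE and without the feeder-rich libraries 1 of the 10 genes had no overlap between Mut and WT libraries. The share of all genes without overlap is not given for these settings, so this count has no background to be read against. Leaving out libraries also makes overlap less likely, and Rhox5 had none with all libraries in. The count is therefore no separate sign of stability. Without the filter 2 of the 10 genes were called in each Mut and WT pair, beside 183 to 350 of all 31641 genes tested. Rhox5 was called in each, but the other gene was not the same throughout. It was Tuba3b in Mut-2 over WT-2, and Dpep3 in Mut-1 over WT-1, Mut-2 over WT-1 and Mut-1 over WT-2. With DESeq2 80 to 216 genes were called in these pairs, among them only Rhox5 of the 10 genes. With WT-1 replicates 1 and 2 merged, 0 were called relative to WT-2, and 0 in Mut-2 over WT-2 without the feeder-rich libraries, where 1 Mut-2 library is assumed to vary like the other lines (Rhox5 at -3.03, edgeR adjusted p = 0.144). Leaving out a library gave 0 to 2 called in Mut-1 over WT-1, 0 to 1 in Mut-2 over WT-2 and in Mut-1 over WT-2, and 0 in the other 3 pairs.

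All genes called were 34 for Mut-1 over WT-1, 76 for Mut-2 over WT-2, 30 for Mut-2 over WT-1, 61 for Mut-1 over WT-2, 3 for WT-2 over WT-1 and 20 for Mut-2 over Mut-1. In that order the filter's absence gave 183, 350, 225, 243, 101 and 99, and DESeq2 80, 216, 109, 138, 39 and 46. A replicate block gave 139 for Mut-2 over WT-2, 95 for Mut-1 over WT-2 and 6 for WT-2 over WT-1, and Rhox5 was called in Mut-2 over WT-2 (adjusted p = 0.0161) and in Mut-1 over WT-2 (adjusted p = 0.0145, edgeR). The block changed no other call of the 10 genes. Merged WT-1 libraries gave 12 for Mut-1 over WT-1, 37 for Mut-2 over WT-2, 8 for Mut-2 over WT-1 and 1 for WT-2 over WT-1. Without the feeder-rich libraries there was 1 for Mut-2 over WT-2, 0 for Mut-2 over WT-1 and 1 for Mut-2 over Mut-1. Leaving out 1 library gave 12 to 208, 9 to 97, 7 to 49, 20 to 78, 0 to 35 and 2 to 29 in the order above. For genes with few reads, such as Asz1 and Tuba3b, depth limits what could be seen.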
